A study of Mus musculus with 27 samples.

Results

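The calcium handling genes of the mouse heart were followed as 10 genes picked by symbol, Atp2a2, Pln, Sln, Ryr2, Casq1, Casq2, Cacna1c, Cacna1h, Slc8a1 and Jph2, out of 22855 genes counted by RNA sequencing. The list was set by what the genes encode and not by a measured value, although it was chosen with earlier results of these data known. Each of the 10 symbols had a single row in both count files. The samples were 27 RNA preparations from C57Bl/6 mice, for which no label names a genotype or a treatment, although the series' one-line design text speaks of expression after infarction, a doubt that the sources used here do not settle: 15 whole hearts, with 3 at each of 5 ages that run from postnatal day 1 through 4 weeks and 14 weeks to 1 year and lastly 1.5 years, and 12 preparations of cardiac fibroblasts sorted by flow cytometry for PDGFRα, with 3 at postnatal day 1 and at 4 weeks and 2 at each later age. Sex is not given, and whether the whole heart RNA held the atria is not stated. The methods speak of 3 animals a time point, but nothing in the sample labels ties a library to an animal, so the p-values measure only the spread between these samples. By the paper's account, fibroblasts and their hearts of origin were both sequenced, so an animal may have given a library of each tissue. The question put to the data was how the level of each gene ran over postnatal life in the whole heart, and which of those courses were also seen in the sorted fibroblasts.

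A heartbeat is set off by calcium. The L-type channel, whose pore is encoded by Cacna1c, lets calcium in across the T-tubule membrane, and this small current opens the ryanodine receptor (Ryr2) of the sarcoplasmic reticulum, which releases the far larger store that calsequestrin (Casq2) holds. Junctophilin (Jph2) keeps both membranes close together. Relaxation follows when the pump SERCA2 (Atp2a2) returns calcium to the store under the brake of phospholamban (Pln) or, mainly in atria, sarcolipin (Sln), and when the sodium-calcium exchanger (Slc8a1) carries the remainder out of the cell. Cacna1h encodes a T-type channel and Casq1 the calsequestrin of fast skeletal muscle, and both are better known from immature or non-cardiac cells. In rodents the neonatal heart relies more on entry and extrusion across the surface membrane, and reuptake into the store grows as the T-tubules and the reticulum mature.

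Promoter windows from RefSeq (GRCm38.p6) were matched for 7 of the 10 genes, Atp2a2, Sln and Cacna1h having no entry. The 4 windows of genes that rose in whole heart between postnatal day 1 and 4 weeks are shown first, since these genes share a call on that step, and that of Casq1, lower at 1.5 years than at postnatal day 1, is shown for contrast. Each runs 5′ to 3′ along the gene up to its start (for Pln, to the last base before the annotated first exon), and capitals mark E-boxes (CANNTG), GATAA on either strand and the MEF2 motif. The windows are Pln at chr10:53337436-53337666 (plus strand), Ryr2 at chr13:12106946-12107195 (minus strand), Casq2 at chr3:102086165-102086414 (plus strand), Jph2 at chr2:163397994-163398243 (minus strand) and Casq1 at chr1:172219896-172220145 (minus strand).
Pln: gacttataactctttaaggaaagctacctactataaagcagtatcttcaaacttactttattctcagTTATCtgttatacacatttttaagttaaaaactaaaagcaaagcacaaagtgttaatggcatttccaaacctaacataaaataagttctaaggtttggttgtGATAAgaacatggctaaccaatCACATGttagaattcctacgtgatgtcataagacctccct
Ryr2: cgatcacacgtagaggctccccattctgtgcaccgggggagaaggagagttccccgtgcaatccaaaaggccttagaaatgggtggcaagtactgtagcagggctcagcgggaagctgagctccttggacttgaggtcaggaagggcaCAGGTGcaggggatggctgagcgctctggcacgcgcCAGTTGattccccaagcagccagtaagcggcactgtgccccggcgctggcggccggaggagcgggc
Casq2: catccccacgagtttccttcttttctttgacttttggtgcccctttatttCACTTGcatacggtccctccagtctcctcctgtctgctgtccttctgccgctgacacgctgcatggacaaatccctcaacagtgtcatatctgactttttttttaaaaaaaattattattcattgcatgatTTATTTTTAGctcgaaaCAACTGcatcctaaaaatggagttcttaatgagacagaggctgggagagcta
Jph2: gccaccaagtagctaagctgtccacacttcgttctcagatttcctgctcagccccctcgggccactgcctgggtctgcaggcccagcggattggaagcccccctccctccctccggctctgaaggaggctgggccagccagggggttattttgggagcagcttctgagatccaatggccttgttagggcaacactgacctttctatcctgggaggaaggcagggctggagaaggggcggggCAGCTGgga
Casq1: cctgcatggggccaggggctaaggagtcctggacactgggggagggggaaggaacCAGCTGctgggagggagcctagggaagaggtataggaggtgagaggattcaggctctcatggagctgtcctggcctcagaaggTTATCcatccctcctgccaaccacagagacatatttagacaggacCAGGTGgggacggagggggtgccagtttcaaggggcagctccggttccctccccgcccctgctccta

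An E-box was found in each of these 5 windows, with 2 in Ryr2, Casq2 and Casq1 and 1 in Pln and Jph2, but 66.2% of the 32851 RefSeq windows of 250 bases held one, so its presence does not set the genes apart. GATAA was found in Pln (2 matches) and Casq1 (1 match) and in 22.6% of all windows. The MEF2 motif was matched in Casq2 only among the 5, beginning 69 bases before the start, and in 1.69% of all windows. TATAAA (12.4% of all windows) was matched in Pln, and GGGCGG (32.7%) in Jph2 and Casq1. Both strands were searched, and no match in these windows overlapped another. These matches describe letters in a window and do not show a bound factor.

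The whole heart libraries held 46091271 to 67984404 counts (median 64467352) and the fibroblast libraries 54615898 to 76758831 (median 69105569). The 10 genes made up 1.02% to 1.99% of the counts of a heart and 0.0436% to 0.0558% of those of a fibroblast sample. Levels are given as CPM, counts relative to the TMM-scaled library size, and a gene was called where edgeR's quasi-likelihood test gave a Benjamini-Hochberg adjusted p below 0.05 over all genes tested. The label whole heart was borne out by 12 cardiomyocyte markers, none at 0, which summed to 32800 to 38180 CPM at postnatal day 1 and 46280 to 77900 CPM later. Hearts also stood apart in ways the age groups do not state. At 1.5 years the long transcript of titin (Ttn) was at 1094, 805 and 621 CPM, and longer genes ran low in those 3 hearts (Spearman's rho of a gene's deviation on its exon length −0.28, −0.47 and −0.50 over 12241 genes, with a range of −0.19 to 0.41 in the other 12 hearts). Xist, the RNA of the inactive X chromosome, was at most 0.57 CPM in the 6 hearts of 14 weeks and 1 year and at least 6.48 CPM in the other 9, while Y-linked Ddx3y was at most 0.397 CPM at 1.5 years and at least 1.64 CPM at every other age. The part of these differences in the results below was not tested, and a change with age cannot be told apart from a change in these sex-linked RNAs where both fall on the same step. In bulk RNA, fewer cells of a type and less RNA per cell cannot be told apart either.

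The course of the 10 genes fell into a rise after birth for pump, release and junction genes, a level that was highest at birth for the T-type channel, Casq1 and the exchanger, and lower levels of Atp2a2, Ryr2, Casq2, Cacna1c and Slc8a1 at 1.5 years than at 14 weeks. Over the 5 ages 8 of the 10 genes passed the test in whole heart, against 34.3% of all 17995 genes tested. The exceptions were Sln (adjusted p = 0.737) and Cacna1h (adjusted p = 0.0725).

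**Figure D1:**
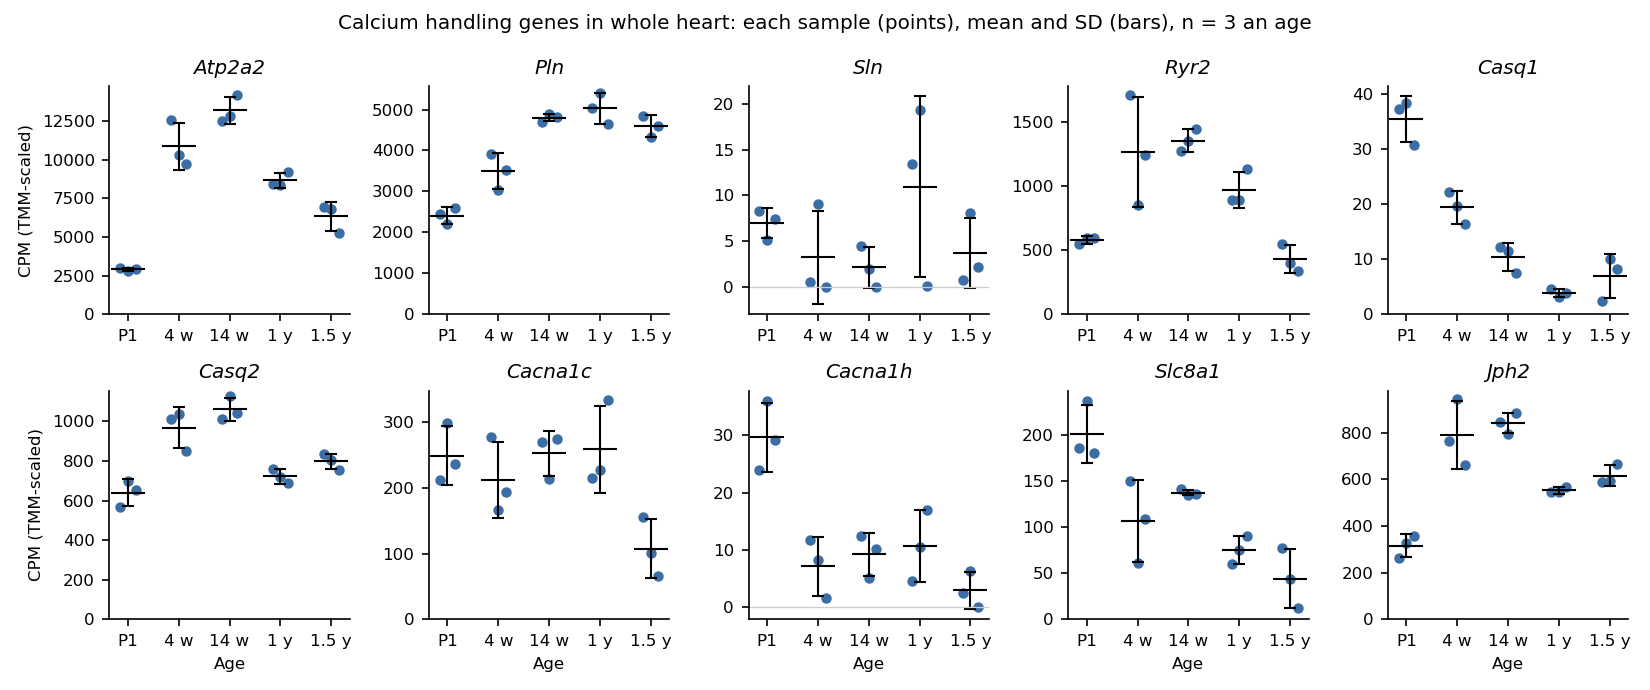
Level of the 10 calcium handling genes in whole heart by age, 1 panel a gene, in CPM on linear axes. Each point is 1 heart, short horizontal lines are the age means and bars are SD (n = 3 hearts an age). Atp2a2 climbs from 2901 ± 87.8 CPM (mean ± SD) at postnatal day 1 to 13190 ± 891 CPM at 14 weeks and stands at 6331 ± 934 CPM at 1.5 years, while Casq1 goes from 35.5 ± 4.15 to 6.91 ± 3.98 CPM.

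Atp2a2, which encodes the calcium pump of the sarcoplasmic reticulum, had the largest mean CPM of the 10 genes. It stood at 2982, 2808 and 2914 CPM in the hearts of postnatal day 1, at 12600, 10310 and 9698 CPM at 4 weeks and at 12520, 12850 and 14200 CPM at 14 weeks. The 1-year hearts held 8435, 8351 and 9225 CPM and the 1.5-year hearts 6951, 6786 and 5257 CPM. Each neonatal heart lay below every older heart, and the hearts of 1 year and 1.5 years formed separate steps below those of 4 and 14 weeks. The neighbours in the order that overlapped were 14 weeks and 4 weeks. The rise from postnatal day 1 to 4 weeks was 3.75-fold (log2 change 1.91 ± 0.15 SE, adjusted p = 1.237e-07), and the fall from 14 weeks to 1.5 years was 2.08-fold (log2 change −1.06 ± 0.14, adjusted p = 0.000572). At 1 year the value against 14 weeks was −0.61 ± 0.14 on the log2 scale and missed the threshold (adjusted p = 0.0567), and DESeq2 called it (adjusted p = 0.000169). Even so, the 1.5-year hearts remained 2.18-fold above the neonatal ones (adjusted p = 1.736e-05).

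Phospholamban, the small membrane protein that holds back the pump, took a different course. Pln stood at 2444, 2197 and 2590 CPM at postnatal day 1, at 3921, 3032 and 3525 CPM at 4 weeks and at 4706, 4882 and 4824 CPM at 14 weeks. It then lay at 5031, 5412 and 4635 CPM at 1 year and 4852, 4338 and 4604 CPM at 1.5 years. The hearts of the 3 oldest ages overlapped, all of them were above the 4-week hearts, and these in turn were above the neonatal ones. The rise to 4 weeks was 1.45-fold (log2 change 0.53 ± 0.13, adjusted p = 0.00733); without the neonatal heart of replicate 2 it was 0.47 with an adjusted p of 0.0551, and in a fit of only these 2 ages 0.51 with an adjusted p of 0.0639. From 14 weeks to 1.5 years the log2 difference was −0.06 ± 0.13 (adjusted p = 0.823), and at 1.5 years Pln was 1.91-fold above postnatal day 1 (adjusted p = 4.17e-05). In GENCODE M21, 64.7% of the exon bases of Pln (1785 of 2759) overlap Cep85l or Gm47644 on the opposite strand. Whether counting used the strand is not stated, so reads of these genes may not be separable, and Cep85l itself was counted at 4.75 to 22.1 CPM in the 15 hearts.

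The balance of brake to pump in a library does not depend on the scaling. The ratio of Pln to Atp2a2 CPM was 0.820, 0.783 and 0.889 at postnatal day 1, then 0.311, 0.294 and 0.363 at 4 weeks and 0.376, 0.380 and 0.340 at 14 weeks. It was 0.596, 0.648 and 0.503 at 1 year and 0.698, 0.639 and 0.876 at 1.5 years. The ratio was therefore lowest at 4 and 14 weeks, higher in each 1-year heart, and at 1.5 years overlapped the neonatal range. The length trend can enter this ratio, since Atp2a2 has 6.08 kb of exon and Pln 2.76 kb. Against 14 weeks, the 1.5-year log2 changes of Atp2a2 and Pln were −1.06 and −0.06. They were −0.79 and −0.25 with a length trend taken out of each library. Against postnatal day 1 they went from 1.13 and 0.93 to 1.39 and 0.66. The part of that trend in the 1.5-year overlap was not tested. Taking the 12 later hearts together against the 3 neonatal ones, the log2 ratio, with a pseudocount of 0.5 CPM, was lower by a difference of −0.81 (two-sided exact permutation p = 0.022, adjusted over 5 ratios p = 0.0275). Without the neonatal heart of replicate 3 the difference was −0.76 with an adjusted permutation p of 0.0687. Between 14 weeks and 1.5 years no values overlapped (exact permutation p = 0.1, the smallest that 3 against 3 allows), and between postnatal day 1 and 1.5 years the exact permutation p was 0.3.

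Sarcolipin is the pump inhibitor best known from atria and slow skeletal muscle. Sln was at 8.31, 5.11 and 7.37 CPM at postnatal day 1, at 0.51 and 9.05 CPM in 2 of the 4-week hearts and at 4.43 and 1.88 CPM in 2 of the 14-week hearts, and the third heart at each of the latter ages held no count, which allows up to 0.0424 CPM at 4 weeks and 0.0592 CPM at 14 weeks. These limits are 3 counts in the library and cover counting error only. At 1 year it was at 13.5 and 19.3 CPM in 2 hearts and at 1 count in the third, and at 1.5 years at 0.754, 8.01 and 2.19 CPM. All neighbouring ages overlapped, and none of the 5 comparisons passed (4 weeks against postnatal day 1 log2 change −1.12 ± 1.67, adjusted p = 0.72). The atrial light chain Myl7 was at 28.1, 87.6 and 3.36 CPM in the same 4-week hearts, at 31.2, 11.03 and 2.90 CPM at 14 weeks and at 43.0, 70.4 and 9.63 CPM at 1 year. At postnatal day 1 Myl7 was at 107, 88.7 and 131 CPM and at 1.5 years at 3.07, 48.9 and 5.07 CPM. The heart with the least Sln had the least Myl7 at all 5 ages, and the heart with the most Sln had the most Myl7 at 4 of them, the exception being postnatal day 1. Summed over 6 atrial markers, none of them at 0 throughout an age, levels were 668 to 1580 CPM at postnatal day 1 and 170 to 543 CPM later; the part of atrial tissue in the Sln values was not tested.

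**Figure D2:**
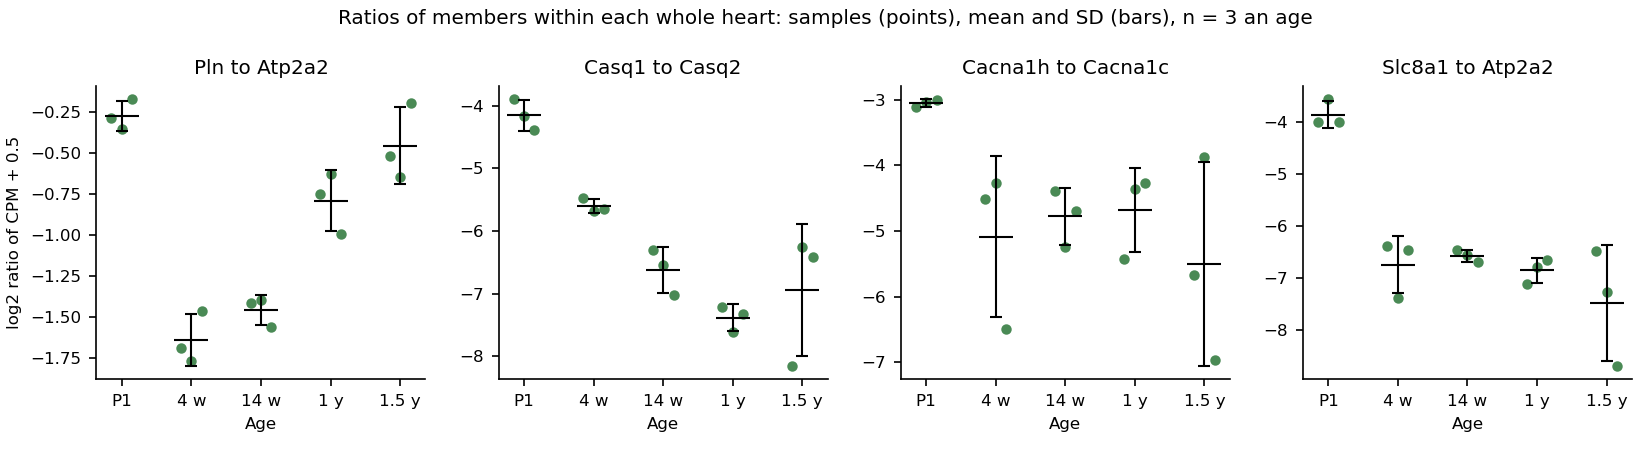
Ratios of gene pairs in each of the 15 whole hearts by age, as log2 of the quotient of CPM + 0.5, 1 point a heart with the age mean as a line. Pln to Atp2a2 is low at 4 and 14 weeks (means 0.323 and 0.365 as linear ratios) and higher at postnatal day 1 and 1.5 years (0.830 and 0.738), while Slc8a1 to Atp2a2 drops after postnatal day 1 from 0.0697 to 0.0105 or less.

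Ryr2 encodes the release channel of the cardiac store and is the longest of the 10 genes (28.79 kb of exon). It stood at 544.5, 591.7 and 595.2 CPM at postnatal day 1, at 1707, 850 and 1237 CPM at 4 weeks and at 1267, 1346 and 1443 CPM at 14 weeks. The 1-year hearts held 888, 888 and 1130 CPM and the 1.5-year hearts 548, 396 and 340 CPM. The 4-week range overlapped those of 14 weeks and 1 year, all 9 of these hearts lay above the youngest and the oldest ones, and the latter 2 groups overlapped. The rise to 4 weeks was 2.19-fold (log2 change 1.13 ± 0.22, adjusted p = 0.00129) and the fall from 14 weeks to 1.5 years 3.16-fold (log2 change −1.66 ± 0.22, adjusted p = 0.000555). Against postnatal day 1 the 1.5-year value was −0.43 on the log2 scale and missed the threshold (adjusted p = 0.135). The sign of that last value turned to 0.76 (adjusted p = 9.306e-05) when a length trend was taken out of each library, and the fall from 14 weeks was then −0.59 (adjusted p = 0.00636).

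Calsequestrin 2, the main calcium buffer of the cardiac store, moved within narrow limits. Casq2 was at 565, 698 and 654 CPM at postnatal day 1, at 1014, 1040 and 849 CPM at 4 weeks and at 1012, 1127 and 1045 CPM at 14 weeks, then at 761, 721 and 687 CPM at 1 year and 833, 806 and 754 CPM at 1.5 years. The hearts of 4 and 14 weeks lay above all others, and its highest age mean was 1.66 times its lowest, the smallest such factor of the 10 genes. It rose 1.52-fold to 4 weeks (log2 change 0.60 ± 0.13, adjusted p = 0.0028). It was 1.47-fold lower at 1 year (adjusted p = 0.0466) and 1.33-fold lower at 1.5 years (adjusted p = 0.0399) than at 14 weeks. Neither of the latter calls was firm: the first was lost in 12 of 15 fits that left out 1 heart and held without the 4-week heart of replicate 2 or the 1.5-year heart of replicate 1 or 3, with adjusted p up to 0.198 without the 14-week heart of replicate 3, and the second in 11 of 15, up to 0.146 without the 14-week heart of replicate 2.

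Casq1 encodes the calsequestrin of fast skeletal muscle and was scarce in these hearts. It stood at 37.4, 38.3 and 30.7 CPM at postnatal day 1, at 22.3, 19.7 and 16.4 CPM at 4 weeks and at 12.3, 11.6 and 7.56 CPM at 14 weeks. The 1-year hearts held 4.64, 3.16 and 3.79 CPM and the 1.5-year hearts 2.43, 10.01 and 8.30 CPM. Hearts did not overlap between postnatal day 1 and 4 weeks, or between 4 and 14 weeks. The 1.5-year hearts spanned the values of 1 year and of the lowest 14-week heart. The fall over the whole span was 5.13-fold (log2 change −2.36 ± 0.39, adjusted p = 0.000206), whereas no single step passed: 4 weeks against postnatal day 1 gave −0.87 ± 0.37 (adjusted p = 0.122), 14 weeks against 4 weeks −0.89 ± 0.37 (adjusted p = 0.307) and 1 year against 14 weeks −1.44 ± 0.38 (adjusted p = 0.0815). Markers of skeletal muscle, 6 of 8 listed genes being in the files, summed to 1.2 to 7.2 CPM over the 15 hearts. As a ratio to Casq2, Casq1 had age means of 0.0560, 0.0201, 0.00987, 0.00534 and 0.00878 from the youngest to the oldest group, and the log2 ratio was lower by a difference of −2.49 in the 12 later hearts (exact permutation p = 0.0022, the smallest that 3 against 12 allows, adjusted p = 0.0055).

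Junctophilin 2 ties the T-tubule to the reticulum, and its course resembled that of the pump. Jph2 was at 262, 326 and 359 CPM at postnatal day 1, at 766, 947 and 661 CPM at 4 weeks and at 845, 798 and 887 CPM at 14 weeks. It was at 545, 545 and 569 CPM at 1 year and at 589, 592 and 668 CPM at 1.5 years. Each heart of 4 weeks or older exceeded each neonatal heart. The rise to 4 weeks was 2.51-fold (log2 change 1.33 ± 0.15, adjusted p = 8.409e-06), and at 1.5 years Jph2 was still 1.95-fold above postnatal day 1 (adjusted p = 0.000113). Against 14 weeks the log2 differences were −0.61 ± 0.15 at 1 year (adjusted p = 0.0626) and −0.45 ± 0.15 at 1.5 years (adjusted p = 0.0543), and DESeq2 called both (adjusted p = 0.00224 and 0.0429). Without the 4-week heart of replicate 3 the latter passed in edgeR too (adjusted p = 0.0477).

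Among the channels of the surface membrane, Cacna1c encodes the pore of the cardiac L-type channel. It was at 212, 299 and 237 CPM at postnatal day 1, at 277, 166 and 194 CPM at 4 weeks, at 271, 213 and 275 CPM at 14 weeks and at 215, 227 and 335 CPM at 1 year. The 1.5-year hearts held 155, 101 and 65.9 CPM. The first 4 ages overlapped throughout, and all 3 hearts of 1.5 years lay below them. Cacna1c was 2.36-fold lower at 1.5 years than at 14 weeks (log2 change −1.24 ± 0.27, adjusted p = 0.0078) and 2.32-fold lower than at postnatal day 1 (adjusted p = 0.0027). It has 21.19 kb of exon, and with the length trend taken out both calls were lost (log2 changes −0.38, adjusted p = 0.145, and −0.22, adjusted p = 0.284).

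Cacna1h, which encodes a T-type channel pore opened at more negative voltages, was low in the heart after birth. It stood at 23.9, 35.9 and 29.1 CPM at postnatal day 1, at 11.7, 8.19 and 1.65 CPM at 4 weeks, at 12.5, 5.16 and 10.1 CPM at 14 weeks and at 4.52, 10.6 and 17.0 CPM at 1 year. The 1.5-year hearts held 2.56 and 6.44 CPM, and 2 counts in the third. All 12 later hearts lay below the 3 neonatal ones, yet they varied widely within an age (CV up to 107%), and the step to 4 weeks missed the threshold (log2 change −2.05 ± 0.91, adjusted p = 0.14). Only the comparison of 1.5 years with postnatal day 1 passed among the 5 made (log2 change −3.30 ± 0.97, adjusted p = 0.0155). In fits of only the 2 ages compared that call was lost (adjusted p = 0.0596) and the step to 4 weeks was called (adjusted p = 0.0371), as it was without the hearts lowest in titin (adjusted p = 0.0376). The ratio of Cacna1h to Cacna1c had a mean of 0.119 in the neonatal hearts and of 0.0333, 0.0357, 0.0394 and 0.0269 at the later ages in turn, and the log2 ratio was lower by a difference of −1.96 in the later hearts (exact permutation p = 0.00879, adjusted p = 0.0147).

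The exchanger gene Slc8a1, whose product carries calcium out in return for sodium, was highest at birth. It was at 186, 237 and 181 CPM at postnatal day 1, at 150, 61.2 and 109 CPM at 4 weeks and at 141, 136 and 137 CPM at 14 weeks, and then at 60.1, 74.8 and 91.0 CPM at 1 year and 77.1, 43.1 and 12.2 CPM at 1.5 years. Every later heart was below the neonatal hearts, the 14-week and 4-week ranges overlapped, and so did those of 1 year and 1.5 years. The step to 4 weeks did not pass (log2 change −0.92 ± 0.43, adjusted p = 0.161). Slc8a1 fell 3.12-fold from 14 weeks to 1.5 years (log2 change −1.64 ± 0.44, adjusted p = 0.0214) and 4.57-fold from postnatal day 1 (log2 change −2.19 ± 0.45, adjusted p = 0.0013). The former call was lost without any 1 of the 14-week hearts or without the 1.5-year heart of replicate 2 (adjusted p 0.05115 to 0.06342). Slc8a1 has 18.81 kb of exon. With the length trend taken out, the 1.5-year log2 change was −0.93 against 14 weeks (adjusted p = 0.0654). Against postnatal day 1 it was then −1.355 (adjusted p = 0.00224). Set against the pump in the same library, the ratio of Slc8a1 to Atp2a2 had a mean of 0.0697 at postnatal day 1 and of 0.00970, 0.0105, 0.00865 and 0.00659 at the later ages in turn, a log2 difference of −3.06 (exact permutation p = 0.0022, the smallest possible, adjusted p = 0.0055). No later heart reached the ratio of any neonatal heart. As Atp2a2 has 6.08 kb of exon, the length trend can enter this ratio too, and its part was not tested.

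Levels of different genes can be set side by side only per length. In CPM per kb of exon, Pln led at postnatal day 1 with 873.7, followed by Atp2a2 with 477.1, Casq2 with 233.6 and Jph2 with 74.2, and the other 6 genes lay between 20.1 (Ryr2) and 3.04 (Cacna1h). Atp2a2 was ahead of Pln at 4 weeks (1788 against 1266 CPM per kb) and at 14 weeks (2169 against 1741), and Pln was ahead again at 1 year (1822 against 1426) and at 1.5 years (1667 against 1041). Casq2, Jph2 and Ryr2 held the next places in that order at all 5 ages, and Cacna1h was last at each. The exon lengths are the union of annotated exons, and the heart's own transcripts may be shorter.

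**Figure D3:**
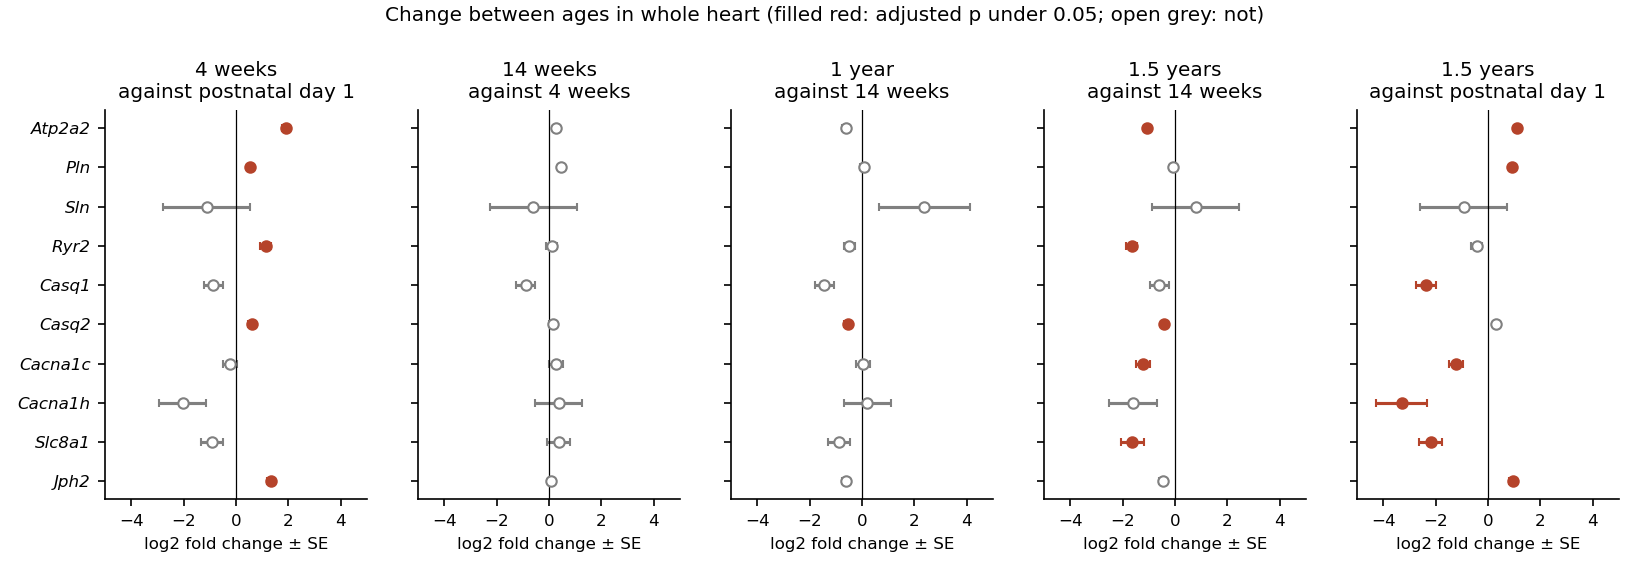
Log2 fold change of the 10 calcium handling genes in 5 comparisons of ages in whole heart, with bars of 1 SE (3 hearts an age); filled red points passed an adjusted p of 0.05. At 4 weeks against postnatal day 1 the points that passed run from 0.53 (Pln) to 1.91 (Atp2a2), and at 1.5 years against 14 weeks those that passed run from −0.41 (Casq2) to −1.66 (Ryr2).

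Taken by comparison, the step from postnatal day 1 to 4 weeks had 5 of the 10 genes higher (Atp2a2, Jph2, Ryr2, Casq2 and Pln) against 12.1% of all genes tested, and 0 lower against 6.1%; at an unadjusted p below 0.05 there were 8, the further 3 being Casq1, Cacna1h and Slc8a1, each with a negative log2 value. The median log2 change was 0.15 for the 10 genes and −0.09 for all genes. The 5 genes that rose make up the pump, its brake, the release channel, its buffer and the junction protein, while neither channel nor the exchanger did. The result depends on how libraries are scaled, since the TMM factor was 1.40 to 1.47 in the neonatal hearts and 0.787 to 1.05 later, and the share of counts from the mitochondrial genome was 10.8% to 13.7% and 14.9% to 34.5%. With library size alone the median of all genes was −0.60, and 980 genes were called higher and 3797 lower in place of 2179 and 1097. Atp2a2 (1.39) and Jph2 (0.81) were then still higher, Ryr2 (0.61, adjusted p = 0.051), Casq2 (0.08) and Pln (0.02) were no longer called, and Casq1 (−1.39) and Slc8a1 (−1.45) were called lower. Without the 1.5-year heart of replicate 1 Casq1 was also called lower with TMM scaling (adjusted p = 0.018), and without that of replicate 3 so were Cacna1h (adjusted p = 0.0205) and Slc8a1 (adjusted p = 0.023).

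Cardiomyocyte genes as a group moved on the same step: 8 of 12 marker genes were higher at 4 weeks than at postnatal day 1 and none lower, with a mean log2 change of 0.72. Beside that mean, Atp2a2 was further up by 1.19, Jph2 by 0.61 and Ryr2 by 0.41 on the log2 scale, whereas Casq2 (−0.12) and Pln (−0.18) lay below it. Markers of macrophages summed to 20.7 to 25.7 CPM at postnatal day 1 and 67.9 to 112 CPM later, and those of endothelium to 429 to 622 CPM at postnatal day 1, 796 to 978 CPM at 4 weeks, without overlap, and 435 to 582 CPM later. On the step to 4 weeks 3 of 5 endothelial markers and 3 of 3 macrophage markers were called higher. The part of a changed mix of cells in the members' steps was not tested.

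From 4 to 14 weeks 0 of the 10 genes passed in edgeR, with 0.756% of all genes higher and 0.85% lower. At an unadjusted p below 0.05 there were 2 (Pln and Casq1), and DESeq2 called 1, Pln (log2 change 0.46 ± 0.13 and adjusted p = 0.0925 in edgeR, adjusted p = 0.00132 in DESeq2). The median log2 change of the 10 genes was 0.19, against 0 for all genes. With library size alone the calls over all genes went from 136 higher and 153 lower to 64 and 432, with a median of −0.24. With DESeq2 they were 431 and 388.

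At 1 year against 14 weeks only Casq2 passed, as 1 gene lower of 10, where 0.389% of all genes were higher and 0.583% lower. The median log2 difference was −0.52 for the 10 genes and 0.05 for all genes, and 5 of the 10 had an unadjusted p below 0.05. DESeq2 called 4 genes lower (Atp2a2, Casq1, Casq2 and Jph2), so the count on this step rests on the test chosen. Over all genes DESeq2 called 348 higher and 508 lower, against 70 and 105 in edgeR. Among fits that left out 1 heart edgeR called Atp2a2 lower in 4 (replicates 1 and 2 of 4 weeks, 1 and 3 of 1.5 years, adjusted p 0.0221 to 0.047), Jph2 without replicate 2 of 4 weeks (0.0308) or 3 of 1.5 years (0.0436), and Casq1 without replicate 1 of 1.5 years (0.0144). Xist was low in all 6 hearts of this step.

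At 1.5 years against 14 weeks 5 of the 10 genes were lower (Ryr2, Slc8a1, Cacna1c, Atp2a2 and Casq2) against 7.86% of all genes, and 0 were higher against 4.91%; DESeq2 likewise called none of the 10 higher and 6 lower, and 6 had an unadjusted p below 0.05 in edgeR. The median log2 difference was −0.83 for the 10 genes and −0.02 for all genes. Pln stayed near 0 (−0.06), while Sln had 0.79 ± 1.67 (adjusted p = 0.83) and Casq1 −0.60 ± 0.37 (adjusted p = 0.313). The 3 largest falls among those that passed belonged to the 3 genes with the most exon sequence, Ryr2, Cacna1c and Slc8a1, and the 1.5-year hearts were those in which long genes ran low. With a length trend taken out of each library, Atp2a2 (−0.79, adjusted p = 0.0009), Ryr2 (−0.59) and Casq2 (−0.60, adjusted p = 0.00807) still passed, and Cacna1c (−0.38) and Slc8a1 (−0.93, adjusted p = 0.0654) did not. Without the hearts lowest in titin at 4 weeks and 1.5 years, Atp2a2 (−0.90), Ryr2 (−1.48), Cacna1c (−0.94) and Slc8a1 (−1.16) passed again, Jph2 was added (−0.48, adjusted p = 0.0373) and Casq2 was lost (−0.33, adjusted p = 0.121). With library size alone the calls over all genes turned from 883 higher and 1415 lower to 1289 and 751. With DESeq2 they were 1612 and 1770. As Xist and Ddx3y differ fully between these groups, age and whatever goes with that difference cannot be told apart.

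**Figure D4:**
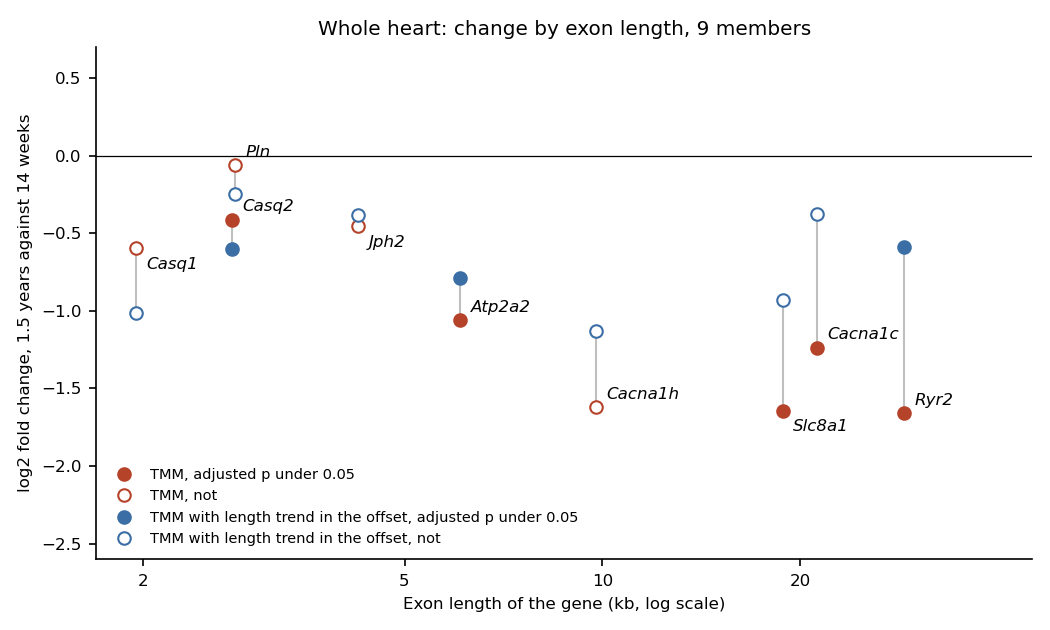
Log2 fold change at 1.5 years against 14 weeks in whole heart for 9 calcium handling genes (Sln is not drawn) by exon length in kb, with TMM scaling and with a length trend taken out of each library. Ryr2, the longest at 28.79 kb, moves from −1.66 to −0.59, whereas Casq2 at 2.74 kb moves from −0.41 to −0.60.

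Over the whole span of 1.5 years, starting from postnatal day 1, 3 of the 10 genes were higher (Atp2a2, Pln and Jph2) against 15.6% of all genes and 4 lower (Casq1, Cacna1c, Cacna1h and Slc8a1) against 16.3%. The medians were −0.68 for the 10 genes and −0.15 for all genes. Casq2 (0.32, adjusted p = 0.0621) and Ryr2 missed the threshold, although Casq2 was called higher without the neonatal heart or the 4-week heart of replicate 2 (adjusted p = 0.0386 and 0.0269), with DESeq2 (0.00419), and with 4 other settings (median-of-ratios scaling, no mitochondrial genes, a minimum of 10 counts or no titin-low hearts, adjusted p 0.027 to 0.0405), and Ryr2 lower without the 1.5-year heart of replicate 1 (adjusted p = 0.0338). With library size alone the calls over all genes went from 2799 higher and 2927 lower to 1377 and 5946, at a median of −0.75; Jph2 (0.36, adjusted p = 0.0753) was then lost, Ryr2 (−1.03, adjusted p = 0.00148) was called lower, and the other 6 calls held. The comparisons with postnatal day 1 share its 3 hearts, and those with 14 weeks share theirs.

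A list of 73 further genes of calcium transport and its control, of which 72 were in the files and 71 tested, gave the surroundings. Over the 5 ages 37 of them (52.1%) passed in whole heart, against 34.3% of all genes. At 4 weeks against postnatal day 1, 16 were higher and 3 lower (12.1% and 6.1% of all genes were), with a median log2 change of 0.23. No gene of the 71 passed between 4 and 14 weeks in edgeR (22 had an unadjusted p below 0.05, and DESeq2 called 7). Over all genes DESeq2 called 819 on this step and edgeR 289. Against 14 weeks, 1 was higher and 2 lower at 1 year, and 6 higher and 11 lower at 1.5 years (4.91% and 7.86% of all genes), with a median of −0.30 on the latter step. The lists by role are small, and their counts are read against these shares. The 1.5-year count ran from 8 called genes without the 14-week heart of replicate 3, and 10 without that of replicate 1, to 24. With a length trend taken out of each library that count was 11, in place of 17. Long genes ran low in the 1.5-year hearts, and the part of this in the falls named below was not tested.

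Among regulators of the store, Hrc, a calcium-binding protein of the reticulum that binds the pump and the release complex, had the largest rise to 4 weeks of the named genes (log2 change 3.13 ± 0.17, adjusted p = 6.815e-09). The phosphatase inhibitors Ppp1r1a (−2.89 ± 0.46, adjusted p = 0.000259) and Ppp1r1b (−3.35 ± 1.09, adjusted p = 0.0426) fell on the same step. In the group of pump regulators 3 of 8 tested genes thus rose and 2 fell, against 12.1% and 6.1% of all genes. Of 11 genes of the ryanodine receptor complex 2 rose, where 12.1% of all genes did. These were Asph (0.64 ± 0.15), which also encodes junctin, and Srl (0.38 ± 0.13), which encodes the luminal protein sarcalumenin. Srl then fell at 1 year (−0.63 ± 0.13, adjusted p = 0.031) and 1.5 years (−0.80 ± 0.13, adjusted p = 0.00129) against 14 weeks, whereas calmodulin gene Calm2 rose at 1.5 years (0.74 ± 0.18, adjusted p = 0.0133).

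Of 8 tested genes of the dyad, where T-tubule and reticulum meet, 4 were higher at 4 weeks and none lower (12.1% of all genes were higher), among them Tcap (2.05 ± 0.18, adjusted p = 4.149e-07), Cmya5 (3.02 ± 0.29, adjusted p = 1.717e-06) and Speg (1.07 ± 0.21, adjusted p = 0.00189). Tcap, which caps titin at the Z-disc, was higher again at 1 year than at 14 weeks (1.23 ± 0.17, adjusted p = 0.00606), and Cmya5 was lower at 1.5 years (−1.59 ± 0.28, adjusted p = 0.00208). Of 14 other channel subunits and inhibitors 2 rose at 4 weeks, a share (14.3%) near the 12.1% of all genes, and 1 of them was Rrad, a GTPase that restrains the L-type channel (1.35 ± 0.21, adjusted p = 0.000173). Between postnatal day 1 and 1.5 years the skeletal muscle pore Cacna1s rose (4.16 ± 0.83, adjusted p = 0.00113), and Cacna1g, the other T-type pore of the heart, fell (−1.92 ± 0.33, adjusted p = 0.000327) as Cacna1h did.

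At the surface membrane, 2 of 6 further pumps and exchangers were lower at 1.5 years than at 14 weeks, where 7.86% of all genes were. Among them was the plasma membrane pump Atp2b1 (−1.26 ± 0.25, adjusted p = 0.00453). Over the whole span the related pump Atp2b4 was lower (−1.46 ± 0.37, adjusted p = 0.0065). Of 8 genes of IP3 receptors and store-operated entry 2 passed over the 5 ages, a share (25.0%) below the 34.3% of all genes, with the receptor Itpr2 lower at the end of the span (−1.38 ± 0.27, adjusted p = 0.00104) and the entry channel Orai3 higher (1.18 ± 0.28, adjusted p = 0.00371). In mitochondria 3 of 8 transport genes rose at 4 weeks, where 12.1% of all genes did. These were the sodium-calcium exchanger Slc8b1 (1.40 ± 0.28, adjusted p = 0.002), Letm1 (1.16 ± 0.13, adjusted p = 8.328e-06) and the uniporter subunit Smdt1 (0.69 ± 0.22, adjusted p = 0.0368). Of 8 kinase and adrenergic genes 4 were lower and none higher at 1.5 years than at 14 weeks, against 7.86% and 4.91% of all genes. Those lower included Camk2a (−0.80 ± 0.21, adjusted p = 0.018) and Camk2g (−0.82 ± 0.17, adjusted p = 0.00553). Camk2b, over the whole span, was higher (1.18 ± 0.35, adjusted p = 0.0173).

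The genes whose levels ran most like those of the 10 were sought among 9324 protein-coding genes with a mean of at least 10 CPM, by Pearson's r of log2 CPM over the 15 hearts. These values describe libraries that share ages, depth and length trend, and carry no test. Atp2a2 ran with Tacc2, Epas1 and Pde4dip (r = 0.98 for each), and Jph2 with Map7d1 (0.99), Dnajb5 (0.98) and Zfp651 (0.97). Ryr2 ran most closely with Ttn (0.98), Huwe1 (0.98) and Hipk2 (0.97), and Slc8a1 with Wac, Prkd3 and Arl5b (0.97 for each). The gene nearest to Ryr2 is thus titin, itself a very long transcript.

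For the store and its brake, Pln ran with Ccng1 (0.98), Etfa (0.98) and Kiz (0.97), and Casq2 with Opa3 and Ubqln4 (0.93 for both) among its nearest 3. Cacna1c ran with Lmo7 (0.95), Xrn1 and Aak1 (0.94 for both), Cacna1h with Asap1 (0.95), Hic2 and Phactr4 (0.94 for both), and Casq1 with Fam83d, Sec61a1 (0.94 for both) and Evl (0.93). For Sln the nearest genes were the atrial light chain genes Myl4 (0.84) and, behind Mterf4 (0.81), Myl7 (0.79). No other of the 10 genes had an atrial marker among its nearest 3.

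In the sorted fibroblasts the calcium handling genes were mostly low. The sort label was borne out by Pdgfra, at 845 to 1288 CPM in age means against 32.5 to 49.0 CPM in hearts, and the 12 cardiomyocyte markers summed to 753 to 882 CPM at postnatal day 1 and 176 to 354 CPM later. Atp2a2, which also serves as the housekeeping pump of other cells, was the most abundant of the 10 per kb at every age (46.1 to 71.2 CPM per kb), followed by Jph2 (6.07 to 13.4 CPM per kb). Sln had no count in 9 of 12 samples and 1, 1 and 72 counts in the others, and was not tested. Over the 5 ages 3 of the 9 genes tested passed (Cacna1c, adjusted p = 0.0142; Cacna1h, adjusted p = 0.00102; Jph2, adjusted p = 0.0163) against 19.9% of 18759 genes, and 5 were called by DESeq2 or without the 1.5-year sample of replicate 5. In these samples Xist was at most 0.315 CPM at 14 weeks and 1 year and at least 137 CPM at the other ages. Ddx3y was at most 0.0813 CPM at 1.5 years and at least 24.8 CPM at the other ages. Spearman's rho of deviation on exon length was 0.12 and 0.11 at 14 weeks and −0.25 to −0.05 at 1 year and 1.5 years. The part of these differences in the test over the 5 ages was not tested, and age cannot be told apart from them.

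The T-type channel gene had a level in neonatal fibroblasts close to that of the neonatal heart. Cacna1h stood at 31.9, 32.7 and 40.7 CPM at postnatal day 1 and at 9.31, 7.23 and 6.12 CPM at 4 weeks, and at 4.59 and 4.56, 5.17 and 5.74, and 1.67 and 8.15 CPM at the 3 later ages in turn. Every later sample lay below the neonatal ones, and the fall to 4 weeks was 4.65-fold (log2 change −2.22 ± 0.45, adjusted p = 0.00486), where 6.2% of all genes were lower. Cacna1c took the other direction, from 5.09, 11.5 and 9.94 CPM to 31.9, 20.8 and 61.4 CPM at 4 weeks, and later lay between 19.0 and 31.3 CPM. All later samples exceeded the neonatal ones, and the rise to 4 weeks was 4.31-fold (log2 change 2.11 ± 0.38, adjusted p = 0.00222), where 9.28% of all genes were higher. Markers of other cells were read beside it. The 5 endothelial markers summed to 542, 366 and 360 CPM at postnatal day 1 and 628, 535 and 1625 CPM at 4 weeks. The 5 smooth muscle and pericyte markers summed to 89.5, 237 and 176 CPM and then 81.4, 64.9 and 165 CPM. Both sums overlapped between these ages. Of smooth muscle genes, Acta2 went from 34.0, 148 and 87.3 CPM to 34.8, 28.9 and 33.6 CPM. Myh11 went from 5.27, 1.48 and 1.54 CPM to 10.7, 4.50 and 28.6 CPM, and later stood at 31.1 to 110 CPM. The smooth muscle and pericyte sum was 328 to 449.5 CPM at 14 weeks and 243 to 255 CPM at 1 year. At 1.5 years it was 119 to 259 CPM. The endothelial sum at these ages in turn was 1103 to 1343, 417 to 554.5 and 282 to 1066 CPM. The 4-week sample with the most Cacna1c had the highest of both sums at that age and the one with the least had the lowest. Without the former sample the log2 change of Cacna1c was 1.58 and still passed, and the part of these markers in the rest was not tested. No other of the 9 genes passed on this step; Jph2, at 49.1, 74.4 and 48.1 CPM and then 42.5, 36.7 and 30.3 CPM, came nearest (−0.65 ± 0.21, adjusted p = 0.0532) and passed without the neonatal sample of replicate 1 or 3 (adjusted p = 0.0452 and 0.0441), and with DESeq2, median-of-ratios scaling, library size, a minimum of 10 counts or the length offset (0.0243 to 0.0463). Pln (−1.76 ± 0.65, adjusted p = 0.0921) passed without the 4-week sample of replicate 3 or either 1.5-year sample (adjusted p 0.0428 to 0.049), and with DESeq2, a minimum of 10 counts or only the 2 ages (0.0255 to 0.0493). Ryr2 (−2.81 ± 1.58, adjusted p = 0.248) passed with only the 2 ages (0.022). Slc8a1 (15.2 to 48.2 CPM over all 12 samples) and Atp2a2 (239 to 478 CPM) gave 0.44 ± 0.31 (adjusted p = 0.36) and 0.32 ± 0.15 (adjusted p = 0.19).

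Of the genes of the cardiomyocyte store, Pln, Ryr2 and Casq2 stood at shares of the heart level like those of cardiomyocyte markers. Pln was at 37.2, 25.2 and 33.8 CPM in neonatal fibroblasts and at 1.39 to 20.9 CPM later, Ryr2 at 12.2, 15.9 and 13.6 CPM and then 0 to 3.45 CPM, and Casq2 at 10.9, 9.32 and 3.49 CPM and then 0.179 to 7.65 CPM. As a share of the heart level, with both tissues scaled together, Pln was at 1.05%, Ryr2 at 1.90% and Casq2 at 0.972% at postnatal day 1, against a median of 1.53% for the 12 cardiomyocyte markers. Cacna1h by contrast was at 93.2% at postnatal day 1 and 38.7% to 125.4% later, Slc8a1 at 9.66% and later 19.9% to 64.9%, Cacna1c at 2.79% and later 8.51% to 13.9%, and Jph2 at 14.3% and later 2.39% to 6.91%. Cacna1h, Slc8a1, Jph2 and Atp2a2 (2.05% to 7.61%) lay above the highest of the 12 markers at every age (5.27% at postnatal day 1, 0.821% to 1.27% later), and Cacna1c did so from 4 weeks on. Casq1 did so from 14 weeks on (1.56% to 13.6%), with 0 to 58 counts in a fibroblast sample of these ages. These shares are of RNA, not of cells.

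**Figure D5:**
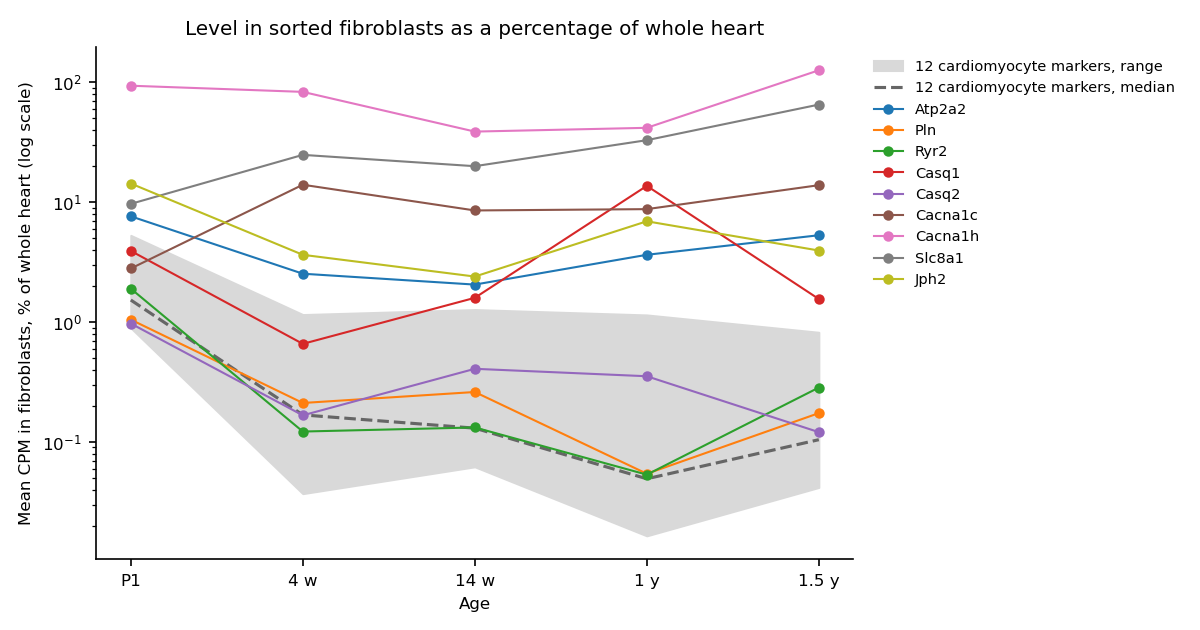
Mean CPM in sorted fibroblasts as a percentage of mean CPM in whole heart by age for 9 calcium handling genes (Sln is not drawn), on a log axis; the grey band spans 12 cardiomyocyte markers and the dashed line is their median (3 hearts an age, 3 or 2 fibroblast samples). Cacna1h, at 93.2% at postnatal day 1, and Slc8a1 lie above the band at all ages, and Pln and Ryr2 lie within it.

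The change from postnatal day 1 to 4 weeks was compared between the tissues by an interaction term over all 27 samples. That fit took the samples as independent, and animals shared between the tissues could not be modelled, since the labels do not name them. It was more negative in fibroblasts than in heart for 5 of the 10 genes (Atp2a2, Pln, Ryr2, Casq2 and Jph2) against 3.96% of 20650 genes, and more positive for 1, Cacna1c, against 3.18%. The call of Pln was lost with library size only (adjusted p = 0.0659) and that of Ryr2 with DESeq2 (adjusted p = 0.051). In the fit of only the 2 ages with a replicate block, the calls of Casq2 and Cacna1c were lost. Jph2 had a log2 difference of −1.97 ± 0.26 (adjusted p = 2.301e-05), Atp2a2 of −1.59 ± 0.23 (adjusted p = 7.129e-05) and Cacna1c of 2.32 ± 0.47 (adjusted p = 0.00285). The 12 cardiomyocyte markers all had lower values on the same test (median −3.08, all genes 0.17), and the part of cardiomyocyte RNA in the fibroblast samples in the calls of Pln, Ryr2 and Casq2 was not tested. Cacna1h did not pass (−0.17 ± 1.16, adjusted p = 1), and its interval is too wide to show that both tissues changed alike. With library size alone the calls over all genes went from 657 higher and 818 lower to 1668 and 443, at a median of 0.60.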

How the data were processed

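RNA was sequenced from 15 whole mouse hearts and 12 preparations of PDGFRα-sorted cardiac fibroblasts at 5 ages. The deposited values were raw read counts per gene that the authors made with STAR 2.5.3a against mm10, with polyA-selected RNA and single-end reads; which strand column was kept and which annotation was used are not given in the sources used here. No within-group pair of the 24 held identical values. Samples were grouped by their labels.

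Counts of 22855 genes were analysed with edgeR 4.0.16 in R 4.3.3: filterByExpr by age, TMM scaling, quasi-likelihood F tests in 1 fit over the ages of a tissue, and Benjamini-Hochberg adjustment over all genes tested, with a threshold of 0.05. The difference between tissues was an interaction term in a fit over all 27 samples. Ratios were tested by exact two-sided permutation (3 against 12 hearts, 455 arrangements, pseudocount 0.5 CPM). Depth allows limits of 0.0309 to 0.0827 CPM for 3 counts in a heart, for counting error only. Exon lengths and coordinates were from GENCODE M21 (21807 genes matched), promoters from RefSeq. Scripts were tested on simulated data with less spread between samples than these data. Here the biological coefficient of variation was 71.8% in heart and 87.9% in fibroblasts. The simulation therefore does not show how reliable the calls are.

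Alternatives were DESeq2 1.42.0, other scalings, filters, pseudocounts, a length-trend offset, fits of only 2 ages, a replicate block and leaving out each sample; leaving out both hearts lowest in titin, and leaving out samples in the interaction, were chosen after seeing the data. The 10 genes, the gene and marker lists and the tests were chosen with earlier results of these data known. Named beside the 10 were up to 3 genes of each role list with the largest change between the youngest and oldest age among those called over the ages with a mean of at least 10 CPM at an age, and the 3 protein-coding genes most correlated with each of the 10, of which 1 is not reported here.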

Additional observations from a re-analysis of the deposited data

Results flagged for a closer look

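A total of 6 of the 10 calcium handling genes changed differently between postnatal day 1 and 4 weeks in sorted fibroblasts and in whole heart, by edgeR's test of the difference itself. Of all 20650 genes tested, 3.18% had a more positive and 3.96% a more negative change in fibroblasts. The log2 difference, fibroblasts minus heart, was −1.59 for Atp2a2 (adjusted p = 7.129e-05), −1.974 for Jph2 (adjusted p = 2.301e-05), −2.309 for Pln (adjusted p = 0.0269), −2.542 for Casq2 (adjusted p = 0.0158) and −3.953 for Ryr2 (adjusted p = 0.0277). Cacna1c was the exception in direction, at 2.321 (adjusted p = 0.00285), with a rise in fibroblasts and no call in heart. The call of Pln was lost in 6 of 12 fits that left out 1 sample (adjusted p up to 0.0669 without the 4-week fibroblast sample of replicate 2), and that of Ryr2 in 4 of 12 (adjusted p up to 0.0667 without the 4-week fibroblast sample of replicate 1). Pln was also lost with library size only (adjusted p = 0.0659), and Ryr2 with DESeq2 (adjusted p = 0.051). Casq2 and Cacna1c were lost in the fit of only the 2 ages with a replicate block. The 12 cardiomyocyte markers all had lower values on the same test. The part of cardiomyocyte RNA in the fibroblast samples in the calls of Pln, Ryr2 and Casq2 was not tested. All groups held 2 or 3 samples, so no search for outlying samples within a group was made.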

How the results depend on the processing

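Counts of called genes on the adult steps were the values that moved most. DESeq2 called more genes than edgeR over all genes too, with 856 in place of 175 at 1 year against 14 weeks. From 4 to 14 weeks the count of the 10 genes went from 0 to 1 with DESeq2. The count of wider genes went from 0 to 7 with DESeq2, 2 with library size only, 1 with a minimum of 10 counts, 6 with the length offset, 1 with only the 2 ages and 3 without the titin-low hearts. At 1 year against 14 weeks the count of the 10 genes went from 1 to 0 with median-of-ratios scaling, library size, no filter, a minimum of 10 counts or the replicate block, to 2 without mitochondrial genes, to 4 with DESeq2 or the length offset, to 5 without the titin-low hearts and to 6 with only the 2 ages. The wider count on this step went from 3 to 5 with DESeq2, 10 with only the 2 ages and 7 without the titin-low hearts. At 1.5 years against 14 weeks the count of the 10 genes was 3, in place of 5, with the length offset or only the 2 ages, and the wider count 11, in place of 17, with the length offset. In fibroblasts DESeq2 called 5 over the ages, and at 4 weeks 4, in place of 2, were called with DESeq2, a minimum of 10 counts or only the 2 ages, the last both without and with the replicate block. With a pseudocount of 5 CPM the log2 ratio of Sln to Pln was −1.35 (adjusted p = 0.00824), against −2.35 (adjusted p = 0.0659).

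Leaving out 1 sample, the counts ran from 0 to 5 (wider) at 14 weeks against 4 weeks, 0 to 3 (the 10 genes) and 1 to 3 (wider) at 1 year, 3 to 6 and 8 to 24 at 1.5 years against 14 weeks, and 2 to 5 in fibroblasts over the ages. The log2 ratio of Pln to Atp2a2 ran from −0.8937 to −0.7506 and that of Sln to Pln from −2.583 to −2.116. Most single values that crossed 0 were not called; the exceptions are named. Ranges without 1 sample were −1.786 to 3.061 (Sln), −0.1214 to 0.3734 (Ryr2), −0.1042 to 0.9103 (Cacna1h) and −0.0224 to 0.2417 (Jph2) at 14 weeks against 4 weeks, −0.1944 to 0.151 (Cacna1c) and −0.2937 to 0.5728 (Cacna1h) at 1 year, −0.5168 to 1.981 (Sln) at 1.5 years against 14 weeks, and −6.218 to 2.746 (Sln) and −0.7496 to 0.2311 (Cacna1h) in the interaction. With library size only, at 14 weeks against 4 weeks, Ryr2 was −0.1389, Casq2 −0.1139 and Jph2 −0.1517, Casq2 was −0.2801 at 1.5 years against postnatal day 1, and Cacna1h 0.3005 in the interaction. Pln at 1.5 years against 14 weeks was 0.007819 with DESeq2 or median-of-ratios scaling, 0.09625 with library size and 0.0433 with a minimum of 10 counts. Ryr2 at 1.5 years against postnatal day 1 was 0.7585 with the length offset, where it was called. Without the titin-low hearts Sln was 3.068 and Ryr2 −0.1214 at 14 weeks against 4 weeks. Relative to the mean change of the cardiomyocyte list, Pln at 4 weeks was −0.1834 and Casq2 −0.1192, both of which were called higher against postnatal day 1. The replicate block gave 0.1475 for Sln at 14 weeks against 4 weeks and, in a fit that was also restricted to the 2 ages, 0.1143 for Cacna1h in the interaction, where the calls of Casq2 (adjusted p = 0.0856) and Cacna1c (adjusted p = 0.0622) were lost; these choices were not separated. Deviations of same-numbered hearts from their age means had correlations of −0.17 to 0.25 (median −0.02, over 30 pairs). Differently numbered hearts were not compared, so this does not show whether replicate numbers pair the hearts. Of 1627 single-gene values under an alternative, 1457 kept their direction and side of the threshold. Apart from these settings the causes were not tested.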
